A study of Cicer arietinum with 8 samples.

Results

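The cell wall glycosidases and structural proteins described here were 12 features of a spotted cDNA array of 768, found by a keyword rule on the feature descriptions (galactosidase, xylosidase, glucosidase, proline-rich, glycine-rich, extensin, expansin, pectin, xyloglucan or cellulose, leaving out RNA-binding proteins, inhibitors and kinases). No measured value entered the rule, and no expansin, pectin or cellulose feature was found by it. Of the 12, 8 were chickpea (Cicer arietinum) cDNAs and 4 were cDNAs of grasspea (Lathyrus sativus), to which chickpea RNA was hybridised. They comprised 5 glycosidases, namely an alpha-galactosidase-like feature (DY475286), the beta-galactosidases DY475141 and EB085056, a beta-glucosidase (DY475415) and a xylosidase (DY475408). A further 2 were xyloglucan enzymes, an endoxyloglucan transferase (DY475207) and a grasspea xyloglucan endotransglycosylase (DY396308). The remaining 5 were grouped here as structural proteins. They were the grasspea glycine-rich protein GRP 1.8 (DY396342), a proline-rich structural protein (DY475348), an extensin-like protein (CV793587) and the grasspea features DY396288 and DY396399. Only the description of DY475348 holds the word structural. DY396288 is described as a hypothetical proline-rich protein, and DY396399 as cornifin alpha, a small proline-rich protein. Another list of the study adds to the description of CV793587 a similarity to a receptor kinase and a disease resistance protein, and the rule was applied to the feature list, which does not.

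Cold-treated plants of 4 genotypes were set against control plants of the same genotype and tissue. Sonali and ILC 01276 were cold tolerant, and Amethyst and DOOEN were cold susceptible. Treatment began 2 weeks after flowering and consisted of nights at 5 °C, with days of 12 h at 15 to 25 °C, and tissue was taken after 7 such nights. Control plants stayed in the glasshouse at 15 to 25 °C, and each arm had 5 plants per genotype, whose tissue was pooled for RNA extraction. The groups were leaves and flowers of each genotype, where the methods describe the flower tissue as flowers, buds and immature pods together. The image names in the file headers call the leaf hybridisations shoot. Each hybridisation carried cold-treated RNA in 1 dye and control RNA in the other, and a feature had 6 spots. In ILC 01276 flowers and in DOOEN flowers replicate 3 held the same values as replicate 1 and was counted once with it, so these groups had 2 replicates, the other 6 groups had 3, and 22 hybridisations were analysed, 12 of leaves and 10 of flowers.

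The plant primary wall is a network of cellulose tied by xyloglucan and embedded in pectin, and it is remodelled rather than fixed once laid down. Glycosidases of the apoplast trim side chains: beta-galactosidases release galactose from galactans, arabinogalactans and xyloglucan, alpha-galactosidases release alpha-linked galactose, as in galactomannans and raffinose sugars, xylosidases release xylose residues, and beta-glucosidases act on xyloglucan fragments as well as on glucoside stores. Xyloglucan endotransglycosylases cut and rejoin xyloglucan chains. Glycine-rich, proline-rich and extensin proteins are structural proteins, some of which become cross-linked into the wall, and GRP 1.8 was described in bean as a protein of vascular cell walls. In pooled tissue, fewer cells of a type and less RNA per cell cannot be told apart.

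The cold response was the log2 ratio of cold over control intensity after loess normalisation, averaged over the spots that the image software had not flagged in either channel. Quality set which features could be measured. In replicate 1 of Sonali leaves, Amethyst leaves, Sonali flowers and Amethyst flowers only 17.7% to 42.5% of the spots were unflagged in both channels, against 56.7% to 76.4% in the other hybridisations, and 1 to 3 of the 12 features had a ratio in these 4. The scans were quantified in 3 periods per the file headers. Replicate 1 of Sonali and Amethyst made up period 1, their replicates 2 and 3 period 2, and all hybridisations of ILC 01276 and DOOEN period 3, so period is partly confounded with genotype. Of 13 chlorophyll a/b binding and photosystem I features used as markers of green leaf, 11 could be tested. Their unstressed level differed between leaves and flowers by a median of 0.50 on the log2 scale, against -0.28 over all features. In the moderated test described below, 2 of the 11 were higher in leaves and 1 was lower.

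The proline-rich structural protein DY475348 had a ratio in all 22 hybridisations, and the alpha-galactosidase-like feature DY475286 in 21. DY475141, DY475415 and DY396342 had 18 each, EB085056 and DY475408 had 17, DY396288 had 14, CV793587 had 10 and DY475207 had 9. The grasspea features DY396308 and DY396399 had ratios in only 3 and 2 hybridisations, so no group of theirs could be tested. Over the array, grasspea features had a ratio in a median of 7 hybridisations and chickpea features in a median of 20. The extensin-like protein and the endoxyloglucan transferase were measured mostly in flowers. Each had a ratio in 8 of 10 flower hybridisations, against 2 of 12 leaf hybridisations for CV793587 and 1 of 12 for DY475207.

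**Figure D1:**
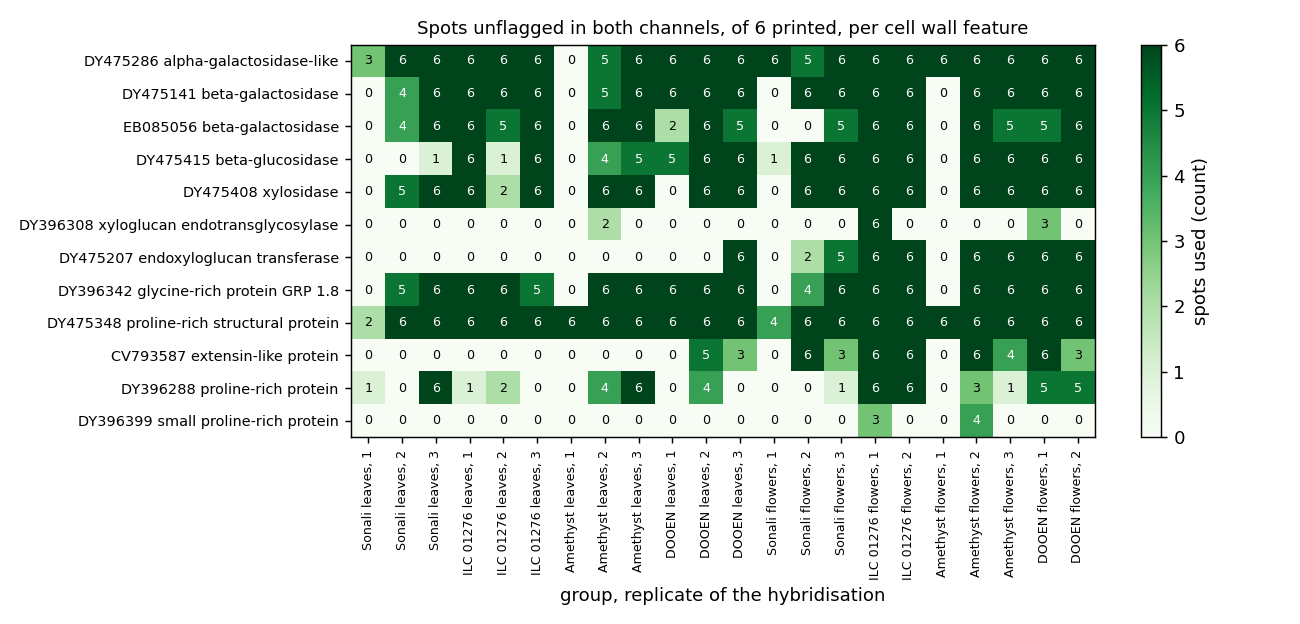
Number of spots, of 6 printed, that were unflagged in both channels, for each of the 12 cell wall features (rows) in each hybridisation (columns, group and replicate). DY475348 and DY475286 were measured nearly throughout, DY475207 and CV793587 mainly in flowers, and DY396308 and DY396399 in 3 and 2 hybridisations.

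In leaves, averaged over the 4 genotypes, the glycine-rich protein rose and a beta-galactosidase and the xylosidase fell. These means, and the group means, were tested with a moderated (limma) test over all features, and a feature was called in a mean or a contrast at an adjusted p below 0.05. Of the 6 cell wall features with at least 2 replicates in every leaf group, 3 were called, against 9.66% of the 445 features tested. By direction, 1 rose against a background of 6.29%, and 2 fell against a background of 3.37%. The falls were not shared by all genotypes. The xylosidase was at -0.09 in ILC 01276 and -0.07 in DOOEN leaves, and the beta-galactosidase at 0.17 in DOOEN leaves. None of the 3 calls held with the quantification period as a random block. The median of the 6 was -0.33, against 0.00 over all features tested. In flowers 1 of 8 was called, a rise, against 1.12% of 446 features in both directions and 0.673% for rises, and the median of the 8 was 0.07, with 0.00 over all features.

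GRP 1.8 (DY396342) rose in leaves and in flowers. In Sonali leaves its log2 ratios were 0.86 and 0.63 in replicates 2 and 3. In ILC 01276 leaves they were 1.10, 0.85 and 0.45. Amethyst leaves gave 0.73 and 0.33 in replicates 2 and 3. All of these, and the ratios of DOOEN leaves, were positive. DOOEN leaves gave 0.36, 0.68 and 0.80. In every one of its 10 leaf measurements the cold channel was thus the brighter, which held for 3.6% of the 445 features tested in leaves. No cell wall feature tested there was below 0 in every leaf measurement, as 1.57% of those features were. The leaf mean was 0.67 ± 0.12 (SE), or 1.59-fold, with an adjusted p of 0.00272. In the authors' deposited means GRP 1.8 was at -0.205 in Sonali leaves and between 0.47 and 0.64 in the other leaf groups, and their mean was 0.38.

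In flowers GRP 1.8 was higher in 7 of 8 measurements. Sonali flowers had log2 ratios of 0.20 and 0.87 in replicates 2 and 3, and ILC 01276 flowers had 0.49 and 0.63. Amethyst flowers had 1.37 and 0.71 in replicates 2 and 3, the highest group mean of this feature at 1.04 ± 0.46 (SD, n = 2). The exception was replicate 1 of DOOEN flowers at -0.12, beside 0.67 in replicate 2. The flower mean was 0.60 ± 0.13 (SE), or 1.52-fold, with an adjusted p of 0.0358. The difference of leaves minus flowers was 0.07, with a 95% confidence interval from -0.31 to 0.45 and an adjusted p of 0.968. In no single group did GRP 1.8 pass the group threshold, an adjusted p below 0.05 and at least 2-fold. Tolerant minus susceptible genotypes differed by 0.20 in leaves (interval -0.31 to 0.71) and by -0.11 in flowers (interval -0.67 to 0.45).

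With the quantification period as a random block the adjusted p of GRP 1.8 was 0.0856 in leaves and 0.571 in flowers. Within period 2 (Sonali and Amethyst) the leaf mean was 0.64 ± 0.21 (SE) with an adjusted p of 0.219. Within period 3 (ILC 01276 and DOOEN) it was 0.71 ± 0.13, with an adjusted p of 0.0255. The flower means were 0.79 ± 0.21 in period 2 and 0.42 ± 0.16 in period 3, with adjusted p of 0.350 and 0.999. The direction was thus the same in both periods, while only the leaf mean of period 3 passed the threshold. The flower call was also lost without each of 11 hybridisations in turn, namely replicates 2 and 3 of Sonali leaves, replicate 2 of ILC 01276 leaves, replicates 2 and 3 of DOOEN leaves, replicate 3 of Sonali flowers, replicates 1 and 2 of ILC 01276 flowers, replicates 1 and 2 of DOOEN flowers and replicate 2 of Amethyst flowers. The adjusted p ranged from 0.0331 to 0.215 over all 22, with the highest without replicate 2 of Amethyst flowers, while the leaf call held in all 22, at 0.00163 to 0.0168.

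**Figure D2:**
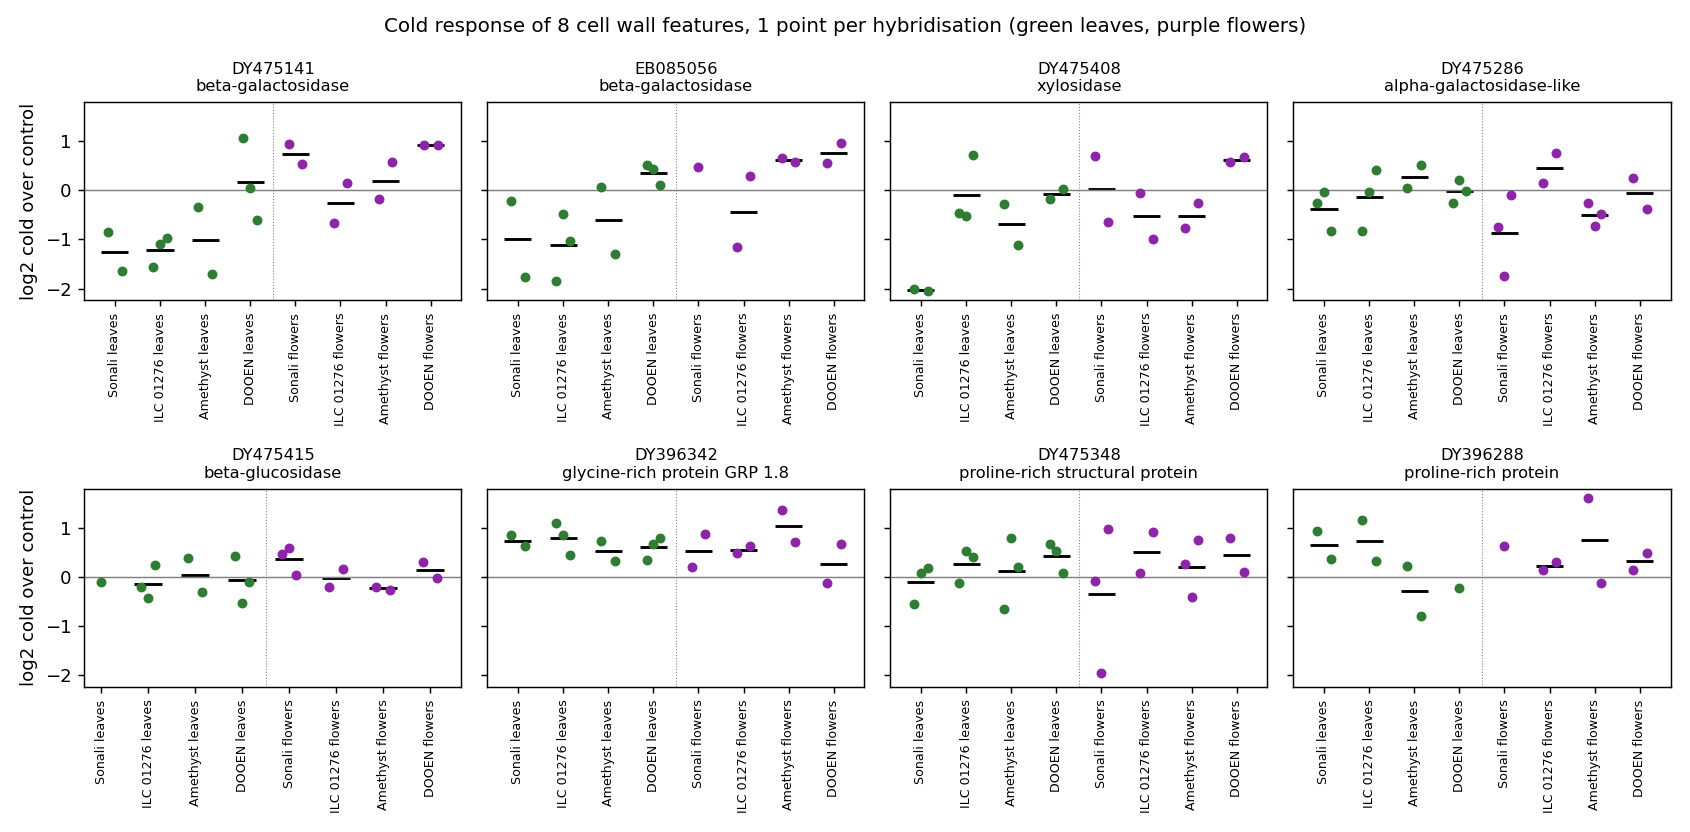
Log2 ratio of cold over control (y axis) of 8 cell wall features in each group (x axis), 1 point per hybridisation, green for leaves and purple for flowers; black bars are group means of at least 2 replicates and the grey line marks no change. GRP 1.8 (DY396342) lies above 0 in all 10 leaf points, and the leaf means of the beta-galactosidases DY475141 and EB085056 are lower in Sonali, ILC 01276 and Amethyst than in DOOEN.

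Among the glycosidases, the beta-galactosidase DY475141 fell in leaves. Its log2 ratios in Sonali leaves were -0.85 and -1.65 in replicates 2 and 3. In ILC 01276 leaves they were -1.57, -1.09 and -0.96, and in Amethyst leaves -0.33 and -1.70 in replicates 2 and 3. All 7 values of these 3 genotypes were negative, both tolerant genotypes and the susceptible Amethyst included. DOOEN leaves were spread around 0, with 1.06, 0.05 and -0.60. The leaf mean over the genotypes was -0.82 ± 0.18 (SE), or 1.77-fold lower in cold, with an adjusted p of 0.00774.

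The group means of DY475141 passed 2-fold in 3 of the leaf groups without passing the group threshold. They were -1.25 ± 0.56 (SD, n = 2) in Sonali leaves, -1.21 ± 0.32 (n = 3) in ILC 01276 leaves, -1.01 ± 0.97 (n = 2) in Amethyst leaves and 0.17 ± 0.84 (n = 3) in DOOEN leaves. The moderated test gave adjusted p of 0.135, 0.0771, 0.359 and 0.999 in that order of groups. Tolerant minus susceptible leaves differed by -0.81, with an interval from -1.57 to -0.04, an unadjusted p of 0.0405 and an adjusted p of 0.995. No difference between the tolerance classes was therefore called, and the values of Amethyst overlapped those of the tolerant genotypes.

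In flowers DY475141 did not fall. Its log2 ratios were 0.94 and 0.53 in Sonali flowers (replicates 2 and 3), -0.67 and 0.14 in ILC 01276 flowers, -0.18 and 0.57 in Amethyst flowers (replicates 2 and 3), and 0.92 and 0.93 in DOOEN flowers. The flower mean was 0.40 ± 0.20 (SE) with an adjusted p of 0.627. Leaves minus flowers differed by -1.22 ± 0.27 (SE), or 2.34-fold, with an adjusted p of 0.027. It was the only feature of 406 called in that direction, 0.246% of those tested, while 1.48% were called higher in leaves and 1.72% in either direction. Leaf and flower values overlapped, since DOOEN leaves reached 1.06 and ILC 01276 flowers went down to -0.67.

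The leaf call of DY475141 was lost with the period as a random block, with an adjusted p of 0.167, while the difference of leaves minus flowers kept its call at 0.0258. Within period 2 the leaf mean was -1.13 ± 0.28 (SE) and leaves minus flowers differed by -1.60 ± 0.40. Within period 3 these values were -0.52 ± 0.21 and -0.85 ± 0.33. Their adjusted p were 0.114 and 0.670 in period 2, and 0.249 and 0.888 in period 3. Leaving out 1 hybridisation at a time ended the call of leaves minus flowers in 9 of 22 cases, namely without replicate 3 of Sonali leaves, replicate 1 of ILC 01276 leaves, replicate 3 of Amethyst leaves, replicate 2 of DOOEN leaves, replicate 3 of Sonali flowers, replicate 2 of ILC 01276 flowers, replicate 1 or 2 of DOOEN flowers or replicate 3 of Amethyst flowers. The adjusted p ranged from 0.0135 to 0.0942 over all 22. The leaf call was lost in 1 case, without replicate 3 of Sonali leaves, at 0.0514.

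The other beta-galactosidase, EB085056, gave values that were correlated with those of DY475141 over the same slides, but not equal to them. In Sonali leaves its log2 ratios were -0.22 and -1.76 in replicates 2 and 3, in ILC 01276 leaves -1.85, -0.47 and -1.03, and in Amethyst leaves 0.08 and -1.30 in replicates 2 and 3. The 3 replicates of DOOEN leaves were positive, at 0.53, 0.44 and 0.12. In flowers 6 of its 7 values were positive, and the exception was replicate 1 of ILC 01276 at -1.16. The leaf mean was -0.59 ± 0.20 (SE), with an unadjusted p of 0.0117 and an adjusted p of 0.090, so EB085056 was not called. Without replicate 2 of Sonali leaves the leaf mean was -0.78 with an adjusted p of 0.0402, and the authors' deposited leaf means averaged -1.69. Only 1 replicate of Sonali flowers gave a value, 0.48, which kept this feature out of the main test of flowers. With that replicate admitted, leaves minus flowers differed by -0.94 ± 0.32 (SE), with an adjusted p of 0.266.

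Over the 10 leaf hybridisations that measured both beta-galactosidases, Pearson's r of their ratios was 0.88 and Spearman's rho 0.93 (permutation p = 0.00027 and 0.00028, two-sided, adjusted over the 2 tissues 0.00054 and 0.00056). Without the 2 hybridisations farthest from the median of DY475141, r was 0.91, and in the 6 leaf hybridisations of period 3 it was 0.85. Over 7 flower hybridisations r was 0.79 and rho 0.61 (exact permutation p = 0.030 and 0.167, adjusted the same), and r was 0.81 without the 2 farthest. The ratios had the same sign in 8 of 10 leaf and 6 of 7 flower hybridisations. The permutations shuffled hybridisations freely over genotypes and periods, so their p do not allow for replicates that share a group mean. No other feature pairs were computed as a background. Both ratios of a pair come from the same slide and the same RNA, and no sequence of these cDNAs was used, so whether they represent 1 gene or several was not tested.

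**Figure D3:**
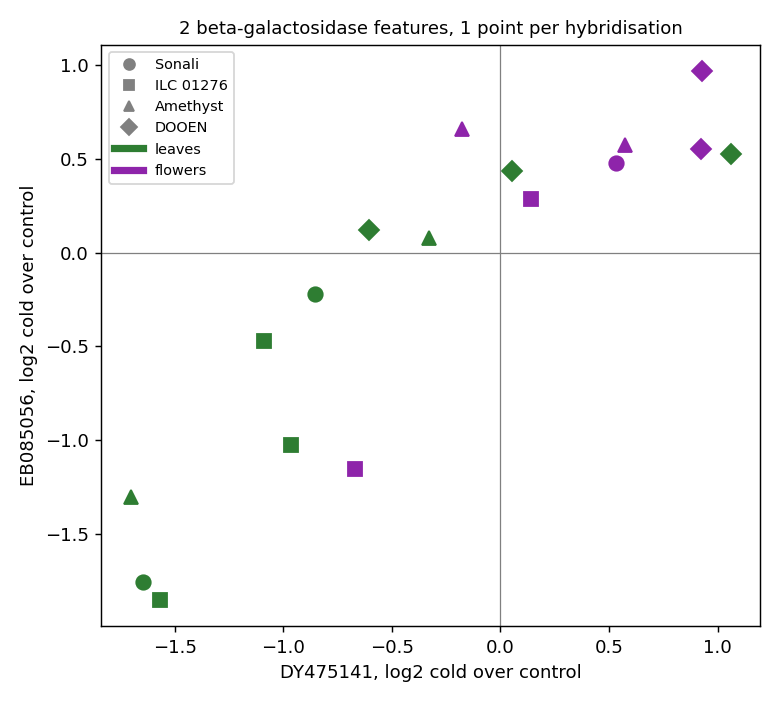
Log2 cold over control of the beta-galactosidase features DY475141 (x axis) and EB085056 (y axis), 1 point per hybridisation, with colour for the tissue and marker shape for the genotype. Leaf points of Sonali, ILC 01276 and Amethyst reach to the lower left, and those of DOOEN lie above 0 on the y axis.

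The xylosidase DY475408 had the only call in a single group. In Sonali leaves its log2 ratios were -2.02 and -2.05 in replicates 2 and 3, which were labelled in opposite dye orientation, and its mean was -2.03 ± 0.02 (SD, n = 2), or 4.09-fold lower in cold. The adjusted p was 0.0253, where 1.26% of the 475 features tested in Sonali leaves were called and 0.421% were called lower. Replicate 1 gave no spot unflagged in both channels. Amethyst leaves had -0.27 and -1.11 in replicates 2 and 3. ILC 01276 leaves were mixed, at -0.47, -0.53 and 0.72, and DOOEN leaves gave -0.18 and 0.03 in replicates 2 and 3.

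The mean of the 4 leaf groups for DY475408 was -0.72 ± 0.18 (SE) with an adjusted p of 0.0191. Within period 2 (Sonali and Amethyst) it was -1.36 ± 0.26, with an adjusted p of 0.0499. Within period 3 (ILC 01276 and DOOEN) it was -0.08 ± 0.22, with an adjusted p of 0.932. The leaf mean was thus far from 0 in the genotypes of period 2 and near 0 in those of period 3. With the period as a random block the adjusted p was 0.168 in Sonali leaves and 0.253 for the leaf mean. Without replicate 2 or replicate 3 of Sonali leaves, where the lone value was assumed to vary like the other groups, the adjusted p of that group was 0.280 and 0.170. With flagged spots kept the leaf mean was -0.53, with an adjusted p of 0.059. The authors' deposited means, which carry no test here, were -3.46 for Sonali leaves and -1.41 over the 4 leaf groups, both over 1.5 times the sizes above. Without either Sonali replicate the leaf mean was no longer called either, at 0.057 and 0.0597, and it also lost its call without replicate 3 of Amethyst leaves (0.0831) or replicate 2 of DOOEN leaves (0.0669).

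In flowers the xylosidase ranged from -0.996 to 0.70. DOOEN flowers were positive in both replicates, at 0.58 and 0.68, while ILC 01276 flowers (-0.04 and -0.996) and Amethyst flowers (-0.77 and -0.26 in replicates 2 and 3) were negative. The flower mean was -0.09 ± 0.19 (SE) with an adjusted p of 0.988. Leaves minus flowers differed by -0.63 ± 0.26, with an unadjusted p of 0.0296 and an adjusted p of 0.462.

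**Figure D4:**
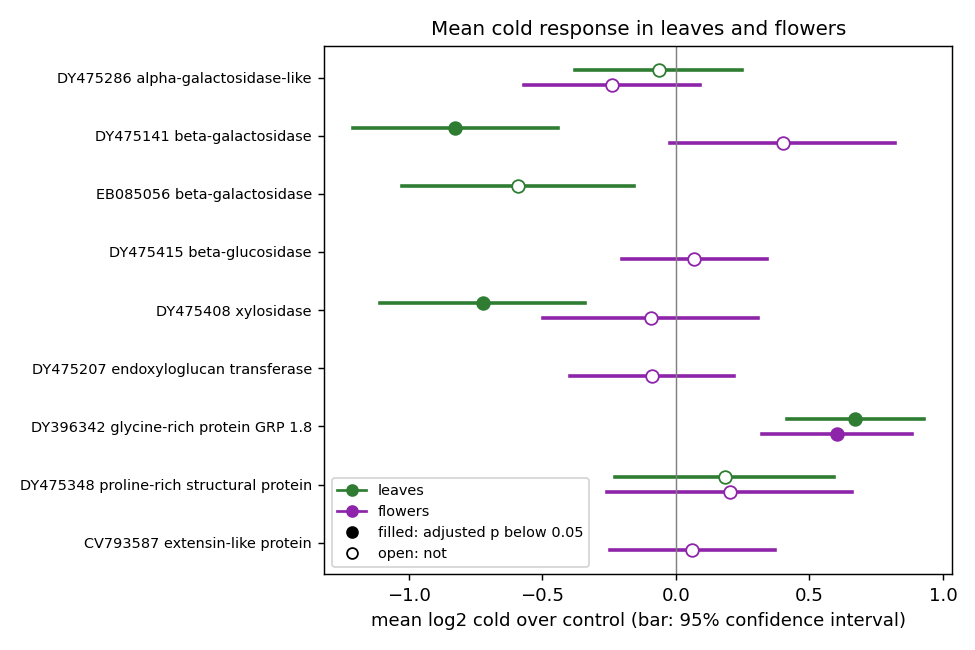
Mean log2 cold over control over the 4 genotypes (x axis) for each of the 9 features testable in leaves (green) or flowers (purple), with 95% confidence intervals; filled points passed an adjusted p below 0.05. GRP 1.8 is above 0 in both tissues, and DY475141 is below 0 in leaves only.

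The alpha-galactosidase-like feature DY475286 was measured in nearly every hybridisation and was called in no comparison. In leaves its 11 ratios ran from -0.83 to 0.51 with a median of -0.02, and the leaf mean was -0.06 ± 0.15 (SE). In flowers its 10 ratios ran from -1.75 to 0.76, with a median of -0.32 and a mean of -0.24 ± 0.16. The lowest group was Sonali flowers, with -0.74, -1.75 and -0.10, a mean of -0.86 ± 0.83 (SD, n = 3) and an adjusted p of 0.250. Without replicate 3 its mean was -1.25 with an adjusted p of 0.0392, which passed the group threshold. ILC 01276 flowers were positive in both replicates, at 0.15 and 0.76.

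The beta-glucosidase DY475415 stayed within -0.53 and 0.58 in its 18 ratios. The flower mean was 0.07 ± 0.13 (SE), with a 95% interval from -0.20 to 0.34. Its highest group was Sonali flowers, at 0.47, 0.58 and 0.05, and the moderated test gave an adjusted p of 0.496 there. In leaves 6 of its 9 ratios were below 0, and Sonali leaves had 1 value, -0.09, from 1 spot. With that replicate admitted, the leaf mean was -0.06 ± 0.14 (SE). The authors' deposited means of DY475415 were lower in leaves, at -1.80 in Sonali, -0.34 in ILC 01276, -0.71 in Amethyst and -0.77 in DOOEN. In flowers they ran from -0.51 in Amethyst to 0.43 in Sonali.

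The endoxyloglucan transferase DY475207, whose description refers to water stress, had flower ratios of 0.41 and -0.29 in Sonali (replicates 2 and 3), 0.24 and 0.03 in ILC 01276, -0.28 and 0.16 in Amethyst (replicates 2 and 3), and -0.34 and -0.63 in DOOEN. These values lay on both sides of 0, and DOOEN flowers were the only group with both replicates below it. The flower mean was -0.09 ± 0.13 (SE), with an interval from -0.40 to 0.22. Its only leaf value was -0.36, in replicate 3 of DOOEN. The grasspea xyloglucan endotransglycosylase DY396308 gave 1.06 in replicate 2 of Amethyst leaves, -0.26 in replicate 1 of ILC 01276 flowers and -0.96 in replicate 1 of DOOEN flowers, from 2, 6 and 3 spots, and no comparison rested on these.

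Of the other structural proteins, none was called. The proline-rich structural protein DY475348 was positive in 9 of 12 leaf and 7 of 10 flower hybridisations. Its leaf mean was 0.18 ± 0.20 (SE) with an adjusted p of 0.725, and its flower mean 0.20 ± 0.22 with an adjusted p of 0.887. Sonali flowers were the most spread group, with -0.08, -1.95 and 0.98. The value of -1.95 was in replicate 2, the same hybridisation that held the lowest ratio of DY475286.

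The extensin-like protein CV793587 had flower ratios of 0.26 and -0.19 in Sonali (replicates 2 and 3), 0.46 and -0.08 in ILC 01276, 0.53 and 0.19 in Amethyst (replicates 2 and 3), and -0.03 and -0.65 in DOOEN. Only Amethyst flowers were positive in both replicates. The flower mean was 0.06 ± 0.14 (SE), with an interval from -0.25 to 0.37, and DOOEN leaves gave -0.75 and -0.27 in replicates 2 and 3. The grasspea proline-rich protein DY396288 was above 0 in 11 of its 14 ratios, 5 of 7 in leaves and 6 of 7 in flowers. Its highest value was 1.62, in replicate 2 of Amethyst flowers, beside -0.11 from 1 spot in replicate 3.

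In Sonali flowers DY396288 was at least 2 times its local background in the 3 cold channels and in none of the 3 control channels. Only replicate 3 held an unflagged spot there, and this 1 spot gave a log2 ratio of 0.63, or 1.54-fold more signal in cold. The ratios of signal to background in that replicate were 2.02 in cold and 1.95 in control. In replicates 1 and 2 the cold channel was the brighter over the whole array, with median ratios of signal to background of 2.70 and 9.23 in cold and 1.76 and 3.48 in control. The small proline-rich protein DY396399 gave 0.51 in replicate 1 of ILC 01276 flowers and 1.73 in replicate 2 of Amethyst flowers, from 3 and 4 spots. With groups of 1 replicate admitted, where the lone value was assumed to vary like the other groups, the adjusted p of the value in Amethyst flowers was 0.256.

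Counted by group, 7 of the 12 features could be tested in Sonali leaves, 8 in the leaves of each other genotype, 8 in Sonali flowers and 10 in the flowers of each other genotype. Outside Sonali leaves no cell wall feature was called by the limma test. The shares of all features called were 0.586% in ILC 01276 leaves (0.391% higher and 0.195% lower), 0.797% in Amethyst leaves, 0.389% in DOOEN leaves and 0% in each of the 4 flower groups. At an unadjusted p below 0.05 there were 4 of 7 cell wall features in Sonali leaves, where 61 of all 475 features passed, and 3 of 8 in ILC 01276 leaves, where 57 of 512 passed. In ILC 01276 flowers there were 0 of 10, against 10 of 532 features. Each of the other 5 groups had 1, where the features passing were 48 of 502 in Amethyst leaves, 37 of 514 in DOOEN leaves, 65 of 478 in Sonali flowers, 30 of 485 in Amethyst flowers and 16 of 535 in DOOEN flowers. The methods' t-test, as run here on replicate ratios with Benjamini-Hochberg adjustment, called 0 cell wall features in every group. Over all features the same procedure called 1 of 512 in ILC 01276 leaves and no feature in any other group. Its lack of calls is therefore shared by nearly the whole array and does not set the cell wall features apart. The procedure was not a repeat of the published calls. In its text the paper reports both beta-galactosidases and the beta-glucosidase as repressed by cold in the leaves of each tolerant genotype. Of these, its list of transcripts changed consistently in only the tolerant or only the susceptible genotypes holds DY475141 alone. The causes of the difference between the published calls and those here were not tested. No feature of the array was called for tolerant minus susceptible genotypes in leaves or in flowers (0%). Among the cell wall features, 2 of 6 had an unadjusted p below 0.05 in leaves, the beta-galactosidases, with a difference of -0.93 (interval -1.80 to -0.06) for EB085056, and 0 of 8 had one in flowers. Over all features 8 of 445 did in leaves and 1 of 446 in flowers.

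The level in unstressed plants was taken from the control channel, in normalised log2 intensity, with a term for the dye. DY475141, which fell in cold-treated leaves, was higher in unstressed leaves than in unstressed flowers, at 13.48 against 12.11. The difference was 1.37 ± 0.36 (SE), or 2.58-fold, with an adjusted p of 0.0103. GRP 1.8, which rose with cold in both tissues, was lower in unstressed leaves than in flowers, at 11.04 against 11.97, a difference of -0.92 ± 0.23 with an adjusted p of 0.00709. Of the 5 cell wall features tested, these 2 were called, where 35.5% of the 411 features tested were called, 11.7% higher and 23.8% lower in leaves. The median difference of the 5 was -0.32, and that of all features -0.28. No cell wall feature differed between tolerant and susceptible genotypes in the unstressed level by the limma test, in leaves (0 of 6) or in flowers (0 of 8), where 0% of all features were called. At an unadjusted p below 0.05 the cell wall counts were again 0, against 9 of 449 features in leaves and 2 of 456 in flowers.

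Both calls of unstressed level were lost with a replicate block, with adjusted p of 0.172 for DY475141 and 0.0973 for GRP 1.8. Of the 411 features, 66 were called in place of 146. This block joined same-numbered hybridisations of paired genotypes (Sonali with Amethyst, and likewise the other pair) within a tissue. Leaves and flowers never shared a block, and the SE of their difference rose. It was 0.67 against 0.36 for DY475141, and 0.37 against 0.23 for GRP 1.8. With the period as a random block both calls held, at adjusted p of 0.00617 for DY475141 and 0.00397 for GRP 1.8. Within period 2 the leaf minus flower difference of DY475141 was 2.00 ± 0.26 (SE), with an adjusted p of 0.00808, and within period 3 it was 0.70 ± 0.57, with an adjusted p of 0.347. That of GRP 1.8 was -0.68 ± 0.38 in period 2 (adjusted p of 0.246) and -1.19 ± 0.21 in period 3 (adjusted p of 0.0033). Within period 3, where 223 of 487 features were called, the xylosidase DY475408 (-1.58 ± 0.52, adjusted p of 0.0427) and the beta-glucosidase DY475415 (-0.99 ± 0.28, adjusted p of 0.0237) were also lower in unstressed leaves. Intensities, unlike ratios, are compared here between slides, and the cold ratio shares its control channel with this level, so that the comparisons are not independent.

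The channel values behind some of these ratios are given next. Levels of Sonali were quantified in other periods than those of ILC 01276 and DOOEN, so slide, period and genotype cannot be told apart in them. In Sonali leaves the xylosidase was at 11.33 ± 0.30 in the cold channel and at 13.36 ± 0.32 in the control channel (SD, n = 2). In DOOEN leaves it was at 11.21 ± 0.79 in cold and 11.28 ± 0.65 in control (n = 2), so that cold Sonali leaves and DOOEN leaves in either condition were within their spread of each other. DY475141 in ILC 01276 leaves was at 13.01 ± 0.54 in cold and 14.21 ± 0.83 in control (n = 3). In DOOEN leaves it was at 13.09 ± 0.57 in cold and 12.92 ± 1.27 in control (n = 3), where replicate 1 had a control value of 11.45 and the others 13.59 and 13.71. The control values of GRP 1.8 in leaves were close together in 3 genotypes, at 10.66 in both replicates of Sonali, 10.95, 11.03 and 11.03 in ILC 01276 and 11.28, 11.22 and 11.13 in DOOEN. They were spread wider in Amethyst, at 11.72 and 10.91 in replicates 2 and 3.

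**Figure D5:**
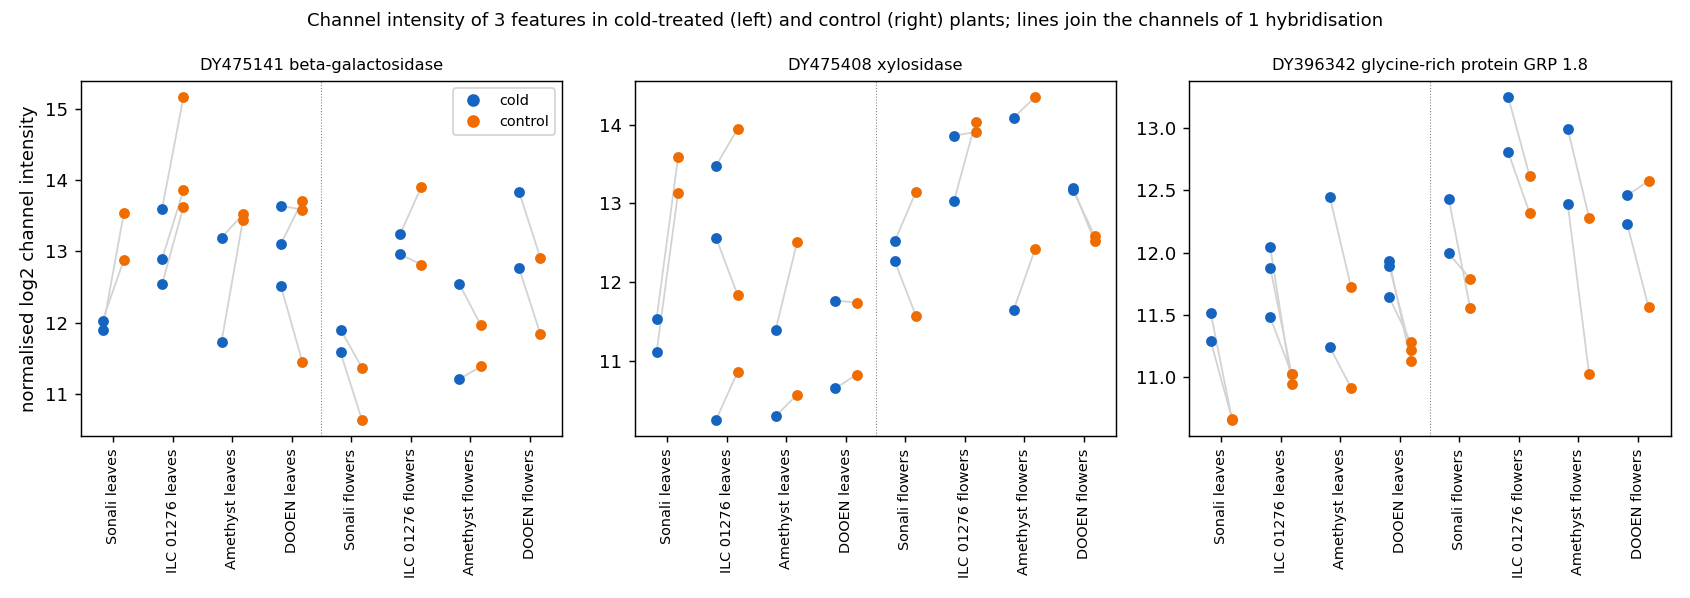
Normalised log2 intensity (y axis) of DY475141, DY475408 and DY396342 in each group (x axis), with the cold channel on the left in blue and the control channel on the right in orange; lines join the channels of 1 hybridisation. The xylosidase DY475408 drops in both replicates of Sonali leaves, and GRP 1.8 is brighter in the cold channel of every leaf pair.

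Beside the wall enzymes and proteins, 15 features were listed that supply sugars for the wall, form lignin or belong to other wall and apoplast proteins. The lists were chosen with earlier results of these data known, so their counts give no independent support when set beside the background. In the leaf mean over all 445 features tested, 6.29% were called as rising and 3.37% as falling. Of the nucleotide sugar list, 4 of 5 could be tested in leaves, and 1 rose with cold and none fell. It was the nucleotide-sugar dehydratase DY475244, of an enzyme class that converts activated sugars, at 0.84 ± 0.17 (SE) with an adjusted p of 0.00443. Of the lignin list, 3 of 5 could be tested in leaves and 1 rose, the cationic peroxidase DY475306, at 0.81 ± 0.17 with an adjusted p of 0.00543. Peroxidases of this kind can couple lignin monomers and cross-link wall proteins. In flowers neither list held a call in the cold response, where 1.12% of 446 features were called. The other wall and apoplast list had no feature with enough values in all 4 genotypes of a tissue. Alternative designs are not reported for the listed features.

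In unstressed plants the nucleotide sugar features were lower in leaves than in flowers. All 4 that could be tested were called, with differences of -1.69 for the UDP-glucose 4-epimerase DY475221, -1.15 for the sucrose synthase DY475105, -0.95 for DY475244 and -0.82 for the nucleotide-sugar epimerase DY475112. Of the lignin list 2 of 3 were lower in leaves, the caffeoyl-CoA methyltransferase CV793595 at -0.89 and the peroxidase DY475306 at -1.18. These counts stand beside the 23.8% of all features that were lower in leaves, and come from lists chosen with earlier results of these data known.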

How the data were processed

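The deposited scanner files gave the intensity of each spot (mean signal and mean local background) in 1 channel, quantified by the authors with ImaGene and not normalised. The authors also deposited group means as log2 values, after background subtraction, removal of flagged spots, LOWESS and combination of replicates, with the log shift not given in the sources used here. These served only as an alternative. The number of hybridisations limits the precision. Dyes were taken from the file names. Header image names gave identical dyes in 22 of the 24 deposited hybridisations and no dyes in 2. Cold RNA was in Cy3 in 8 of the 22 distinct hybridisations. One file listed its spots by name, so all were sorted by position. Features were named by joining the study's feature list in print order (732 of 732 positions compared matched), and 0 of 668 accessions were in the reference gene table, so genome positions and sequences were not used here.

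Intensities were corrected with normexp (offset 50) and normalised with 1 loess curve per hybridisation (span 0.3, 4 iterations) in limma 3.58.1 under R 4.3.3. Control spots were left out. Features at least 2 times background in 1 channel were kept (738 of 756), and 34.2% of replicate values were missing. A moderated model equal to limma's lmFit and eBayes, tested on simulated data, gave 8 group means and their contrasts, two-sided, with Benjamini-Hochberg adjustment over all features with at least 2 replicates in each group used. Control channel levels used Aquantile normalisation and a dye term. The methods call the 3 replicates biological and the tissue pooled. They do not say how plants were divided among replicates, so p-values measure the spread between these samples, which may be partly technical. All 12 features, and called features of the listed context groups, were named. Members and lists were chosen with earlier results of these data known.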

Additional observations from a re-analysis of the deposited data

Results flagged for a closer look

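The cold response of the beta-galactosidase DY475141 differed between leaves and flowers by -1.22 on the log2 scale, by the moderated test of the difference itself (adjusted p of 0.027).

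In a further 12 of 125 pairs of groups of 1 tissue or 1 genotype, every replicate of 1 group moved up and every replicate of the other moved down, against 4.32% of such pairs over all features. These differences were not tested, and groups had 2 or 3 replicates. For the beta-galactosidases they were Sonali leaves minus Sonali flowers for DY475141 (-1.99), and, for EB085056, leaves of Sonali minus DOOEN (-1.35) and of ILC 01276 minus DOOEN (-1.48). For the xylosidase DY475408 they were flowers of ILC 01276 minus DOOEN (-1.15) and of Amethyst minus DOOEN (-1.14). For the alpha-galactosidase-like DY475286 they were leaves of Sonali minus Amethyst (-0.65), Amethyst leaves minus Amethyst flowers (0.77), flowers of Sonali minus ILC 01276 (-1.32) and flowers of ILC 01276 minus Amethyst (0.95). The others were flowers of Amethyst minus DOOEN for the extensin-like CV793587 (0.70), flowers of Sonali minus Amethyst for the beta-glucosidase DY475415 (0.59) and flowers of ILC 01276 minus DOOEN for the endoxyloglucan transferase DY475207 (0.62).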

How the results depend on the processing

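No called value of a member turned its direction under any alternative. The number of members called in the leaf mean (3) was 1 with the replicate block, 0 with the period as a random block, 0 by the methods' t-test, 2 with flagged spots kept, and 1 within each of periods 2 and 3. In the flower mean (1) it was 0 with no background correction, median centring, flagged spots kept, the replicate block, the period block, the methods' t-test, the deposited means, without the 4 hybridisations with few unflagged spots, and within each of periods 2 and 3. For leaves minus flowers (1) it was 0 by the methods' t-test and within each of periods 2 and 3, and 3 in the deposited means taken at 2-fold without a test. The deposited means also gave 2 for tolerant minus susceptible leaves and 1 for flowers, where the test gave 0, and 10 in single groups. Of 478 features in these means, 23 reached 2-fold for leaves minus flowers. For tolerant minus susceptible genotypes 17 did in leaves and 16 in flowers. In the deposited means single groups were not counted over all features. The single-group count (1) was 0 with the replicate block, the period block and the methods' t-test, and 2 with each deposited file as a replicate. For unstressed leaves minus flowers (2) it was 4 with flagged spots kept, 0 with the replicate block, 1 within period 2 and 3 within period 3. Over all features 143 of 738 were called with flagged spots kept, 51 of 395 within period 2 and 223 of 487 within period 3. The causes were not tested. Leaving out 1 hybridisation at a time gave 1 to 3 calls in the leaf mean, 0 to 1 in the flower mean, 0 to 1 for leaves minus flowers and 0 to 2 in single groups, where the count of 2 came without replicate 3 of Sonali flowers. With flagged spots kept, GRP 1.8 lost its unstressed difference (-0.53, adjusted p of 0.162).

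Same-numbered hybridisations of the paired genotypes deviated together in 10 of 11 pairs (correlation -0.11 to 0.79) and those of the 2 tissues of a genotype in 7 of 10 (-0.12 to 0.52). Since not every pair was above 0.1, the numbers were not taken as pairs and the main design treated the hybridisations as independent. The consensus correlation was 0.47 within paired genotypes and 0.25 within the tissues of a genotype, so the main errors may be too small. For GRP 1.8 in leaves the SE was 0.12, against 0.17 with the replicate block. That block joined paired genotypes within a tissue, and for the cold response of leaves minus flowers the 2 tissues of a genotype. With the replicate block the adjusted p of GRP 1.8 was 0.0341 in leaves and 0.431 in flowers, that of DY475141 0.0661 in leaves and 0.0116 for leaves minus flowers, and that of DY475408 0.0525 in Sonali leaves and 0.112 in the leaf mean. For the unstressed difference, where the block never joined leaves with flowers, it was 0.0973 for GRP 1.8 and 0.172 for DY475141. Only the leaf call of GRP 1.8 and the leaves minus flowers call of DY475141 held with the replicate block. Over all features the leaf mean gave 43 calls in the design used above, 27 with the replicate block, 8 with the period block and 0 by the methods' t-test, and unstressed leaves minus flowers gave 146 and, with the replicate block, 66. The flower mean gave 5, 12 with each deposited file as a replicate, and leaves minus flowers 7 and 14. Both gave 0 by the methods' test. The values within periods, the period block for the unstressed level, the admission of single replicates and the removal of 4 hybridisations were chosen after seeing the data.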
